A study of Mus musculus with 8 samples.

Results

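The kappa light chains built from 3 V genes of the mouse IGKV5 family, IGKV5-39, IGKV5-43 and IGKV5-48, were described in single-cell receptor sequences of spleen germinal-centre B cells. A member cell was a barcode with exactly 1 heavy and 1 light contig, the light contig being a kappa chain with one of these V genes. There were 1445 member cells among 38806 kappa cells and 40603 cells paired in this way: 296 with IGKV5-39, 419 with IGKV5-43 and 730 with IGKV5-48. The tested libraries, called KO here, came from Dtx1-/- mice (4 libraries), and the WT libraries came from Dtx1+/+ mice (4 libraries). All were spleen cells taken on day 10 after immunization, enriched with peanut agglutinin beads and sorted. The sources used here do not state the immunogen, the kind of knockout allele, the age or number of mice, or the sort gates. Dtx1 encodes Deltex-1, a ubiquitin ligase known for its part in Notch signalling.

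A kappa chain is made when a V gene joins one of the J genes downstream of it on chromosome 6, and the join forms the third complementarity-determining region (CDR3). The first and second of these loops, CDR1 and CDR2, are encoded by the V gene itself, so the choice of V gene fixes a large part of the binding surface before any mutation. A cell that has made one kappa chain can replace it by joining a V gene further upstream to a J gene further downstream. In germinal centres B cells divide, mutate their V segments and can change the heavy-chain class from IgM to IgG or IgA.

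In the RefSeq table of GRCm38.p6, which is mm10, the build in the submitters' processing notes, all 3 genes are V segments on chromosome 6. IGKV5-39 lies at chr6:69900424-69900977, IGKV5-43 at chr6:69823355-69823911 and IGKV5-48 at chr6:69726573-69727125. IGKV5-39 is 822 kb from Igkj1, IGKV5-43 is 899 kb from it and IGKV5-48 is the most distant at 995 kb. The germline sequences below are shown because every mutation count rests on them and because they show how far the members differ. Each is the sequence carried by most clones of its gene in the deposited contigs, from framework 1 to framework 3, 5′ to 3′ on the coding strand, with CDR1 and CDR2 in capitals.
IGKV5-39: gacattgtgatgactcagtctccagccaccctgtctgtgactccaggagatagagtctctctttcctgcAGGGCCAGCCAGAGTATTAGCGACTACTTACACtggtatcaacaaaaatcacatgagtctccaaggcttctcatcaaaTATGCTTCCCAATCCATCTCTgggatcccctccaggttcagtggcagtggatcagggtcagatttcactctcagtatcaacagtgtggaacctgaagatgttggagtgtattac
IGKV5-43: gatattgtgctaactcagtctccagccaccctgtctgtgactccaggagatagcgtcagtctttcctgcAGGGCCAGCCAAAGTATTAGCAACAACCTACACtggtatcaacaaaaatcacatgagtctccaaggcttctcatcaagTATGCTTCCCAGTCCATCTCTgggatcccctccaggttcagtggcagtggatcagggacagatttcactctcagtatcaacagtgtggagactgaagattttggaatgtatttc
IGKV5-48: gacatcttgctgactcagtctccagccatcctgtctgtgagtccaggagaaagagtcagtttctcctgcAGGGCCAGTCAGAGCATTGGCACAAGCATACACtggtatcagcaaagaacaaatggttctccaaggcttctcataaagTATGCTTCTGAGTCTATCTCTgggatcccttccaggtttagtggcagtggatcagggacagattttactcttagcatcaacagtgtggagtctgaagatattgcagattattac
Each runs over 261 bases, and the most common sequence was the same in KO and WT libraries for all 3 genes. IGKV5-39 and IGKV5-43 were 93.1% identical, with 18 base differences. IGKV5-48 stood further off, at 83.5% identity to IGKV5-39 and 84.7% to IGKV5-43. Of the 11 CDR1 residues, 2 differed between IGKV5-39 and IGKV5-43, and 4 differed between IGKV5-48 and each of the others. The nearest copy of a member was IGKV5-45, which differs from IGKV5-43 at 3 bases, so these 2 genes can be told apart only at those bases. No member cell was nearer, or equally near, to the germline of another gene.

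The CDR3 letters are shown next because the V part of the loop separates IGKV5-39 from the other members. For each gene the 3 sequences found in most clones follow, with the ninth codon, where V and J meet, in capitals.
IGKV5-39 with IGKJ5, leucine codon: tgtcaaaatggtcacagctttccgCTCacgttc
IGKV5-39 with IGKJ2, tyrosine codon: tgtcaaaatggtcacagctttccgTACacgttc
IGKV5-39 with IGKJ4, phenylalanine codon: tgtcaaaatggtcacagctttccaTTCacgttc
IGKV5-43 with IGKJ5, leucine codon: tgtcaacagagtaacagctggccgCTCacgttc
IGKV5-43 with IGKJ5, leucine codon: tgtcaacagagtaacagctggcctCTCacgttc
IGKV5-43 with IGKJ2, histidine codon: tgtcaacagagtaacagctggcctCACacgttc
IGKV5-48 with IGKJ4, phenylalanine codon: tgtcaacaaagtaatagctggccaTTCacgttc
IGKV5-48 with IGKJ2, tyrosine codon: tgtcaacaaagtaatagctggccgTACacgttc
IGKV5-48 with IGKJ5, leucine codon: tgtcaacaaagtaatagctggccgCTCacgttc
The first 7 residues encoded by IGKV5-43 and IGKV5-48 were the same, although 2 of the 23 bases that come from V differ. IGKV5-39 shared 3 of these 7 residues with each of them. The leading IGKV5-39 sequence occurred in 64 clones (52 cells in KO and 42 in WT), that of IGKV5-43 in 53 clones (43 and 36 cells) and that of IGKV5-48 in 51 clones (108 and 52 cells). In these listed sequences the ninth codon was leucine with IGKJ5, and in IGKV5-39 and IGKV5-48 it was tyrosine with IGKJ2 and phenylalanine with IGKJ4. In IGKV5-43 the sequence with CTC after cct was joined to IGKJ5 in 76.6% of its cells, and the sequence with CAC to IGKJ2 in 66.7%, so for these letters the J gene named is only the most common one.

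Each library held 4585 to 5712 paired cells (5045 to 5712 in KO, 4585 to 4842 in WT). A count of 3 cells, the floor used for a gene that is not seen, is 0.0542 to 0.0613% of the kappa cells of a KO library and 0.0661 to 0.0696% of those of a WT library, for counting error only. The labels do not say whether the libraries are separate mice. Any 2 libraries of one genotype shared 684 to 992 receptor clonotypes (same V genes and CDR3 bases in both chains), and any KO and WT library shared 5 to 13. Among member cells 18 to 48 clonotypes were shared within a genotype and 0 between genotypes. The libraries of a genotype therefore draw on the same clones, and the SDs and p-values below measure the spread between loadings of 1 KO and 1 WT pool, not between mice. Of all barcodes, 978 were listed in more than 1 library, and none of the 998 such pairs of cells had the same clonotype. Loss of Dtx1 could not be checked, since only receptor contigs were available here. Heavy-chain contigs had medians of 37.0 to 41.0 UMIs (unique molecules counted) in KO libraries and 22.0 to 25.0 in WT libraries. Light contigs had medians of 42.0 to 60.0 UMIs in KO and 29.5 to 38.5 in WT for IGKV5-39. For IGKV5-43 they were 54.0 to 66.5 and 41.0 to 56.0, and for IGKV5-48 82.5 to 90.0 and 51.5 to 72.0. In kappa cells other than IGKV5-39 they were 70.0 to 79.0 in KO and 63.0 to 69.0 in WT. The part of these gaps in any result was not tested. Receptor contigs cannot identify a germinal-centre B cell. Some signs of other B cells were in few cells. IGHD was the constant gene in 2 KO and 4 WT member cells, and over 500 heavy UMIs were in 1 KO and 3 WT cells. Of the B-1 genes IGHV11-2, IGHV12-3 and IGHV7-1, only IGHV7-1 was seen with a member, in 5 KO and 2 WT cells. Any of these B-1 genes was in 322 of 20297 other kappa cells in KO and 110 of 17064 in WT. IgM with neither chain mutated, also listed as such a sign, was common. It made up 75.0 to 79.4% of member cells of the KO pool and 53.5 to 73.1% of those of the WT pool, by gene, against 73.6% of other kappa cells in KO and 61.0% in WT.

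IGKV5-48 was used more in KO than in WT libraries, whereas the use of IGKV5-39 and IGKV5-43 was not called different. IGKV5-48 was in 140, 121, 152 and 116 cells of the KO libraries, against 51, 48, 48 and 54 cells of the WT libraries. As a share of kappa cells this was 2.49 ± 0.269% in KO and 1.14 ± 0.0733% in WT (SD, n = 4 libraries each), and the groups did not overlap. edgeR's quasi-likelihood test gave a log2 fold change of 1.12 (SE 0.107, adjusted p = 6.51e-08), a 2.18-fold ratio and the sixth highest of 69 IGKV genes tested. Of those 69 genes, 46.4% were called higher in KO, 26.1% lower and 72.5% in either direction, so a call is the common outcome here. IGKV5-39 took 0.780 ± 0.126% of kappa cells in KO and 0.739 ± 0.0993% in WT (SD, n = 4 libraries each), with 34, 49, 48 and 35 KO cells and 34, 36, 26 and 34 WT cells. Its log2 fold change was 0.08 (SE 0.168, edgeR adjusted p = 0.714). IGKV5-43 took 1.09 ± 0.0570% in KO and 1.06 ± 0.308% in WT (SD, n = 4 libraries each), with 63, 60, 58 and 51 KO cells and 46, 66, 40 and 35 WT cells. Its log2 fold change was 0.04 (SE 0.165, edgeR adjusted p = 0.865). The sign of these last 2 turns with TMM scaling, to -0.16 for IGKV5-39 and -0.20 for IGKV5-43. TMM shifted the median of all tested genes by -0.24, to -0.05 from the 0.19 of the fit above, and with it 23 genes were called higher and 23 lower, against 32 and 18.

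**Figure D1:**
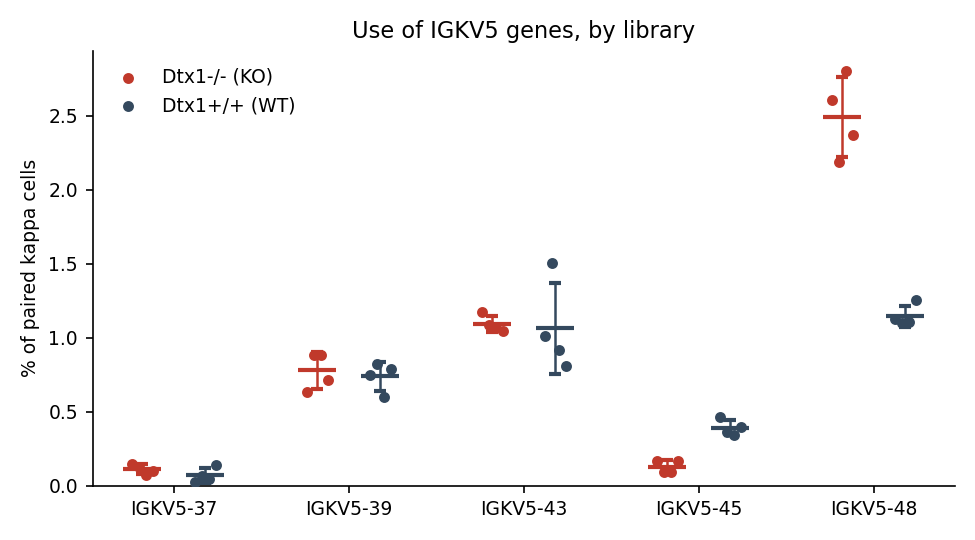
Share of paired kappa cells that use each IGKV5 gene, in percent, with 1 point per library, the bar at the mean of 4 libraries and the whiskers at 1 SD; KO is red and WT dark blue. The IGKV5-48 points run between 2.18 and 2.80% in KO, against 1.10 and 1.25% in WT, IGKV5-45 is lower in KO, and the points of IGKV5-39 and IGKV5-43 overlap.

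The size of the IGKV5-48 difference depended on how cells were counted. Each clone counted once gave a log2 fold change of 0.59, and counting every kappa contig of cells with 1 heavy chain gave 0.50, an alternative chosen after seeing the data; both were still called by edgeR. In cells with 1 heavy and several light chains IGKV5-48 was found 30 times in KO and 127 times in WT, which is 4.67% of its contigs in KO and 32.99% in WT. For all kappa contigs that share was 11.7% in KO and 11.3% in WT. Of the 127 WT contigs, 90 belonged to 1 IgM clone, with 0 cells in the KO libraries and 22, 21, 29 and 18 in the WT libraries. It paired an IGHV8-8 heavy chain with IGKV5-48 joined to IGKJ5 and with IGKV14-100 joined to IGKJ4. Its letters are shown because it holds 90 of those 127 contigs.
Heavy CDR3: tgtgctcgacacccctttgactactgg
IGKV5-48 CDR3: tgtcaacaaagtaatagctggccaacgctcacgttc
IGKV14-100 CDR3: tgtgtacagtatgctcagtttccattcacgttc
All 90 cells had these heavy and IGKV5-48 letters, and the IGKV5-48 V segment was unmutated in all 90. The contigs had medians of 33 UMIs for the heavy chain, 55.0 for IGKV5-48 and 66.5 for IGKV14-100. The same heavy CDR3 was paired with IGKV14-100 alone in 104 cells (27, 34, 19 and 24 in the WT libraries) and with IGKV5-48 alone in 1 cell.

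The other family members in the files were rarer. IGKV5-45 was in 27 KO cells and 69 WT cells, and fell by 1.60 on the log2 scale in KO (edgeR adjusted p = 5.74e-06). IGKV5-37 was in 24 KO and 12 WT cells and was too rare for the test. Around the members, 9 genes numbered 36 to 51 after the hyphen were tested. Among the 6 that are not members, 3 were called higher in KO and 2 lower. The highest log2 fold changes of the 9 were those of IGKV4-50 (1.67) and IGKV5-48, and the lowest those of IGKV5-45 and IGKV12-38 (-0.96). Their median was 0.08, beside 0.19 over all 69 genes. By family, the calls were 1 higher and 1 lower of 4 in IGKV5, 11 and 5 of 17 in IGKV4, 6 and 0 of 7 in IGKV8, 4 and 2 of 8 in IGKV6, 1 and 3 of 7 in IGKV3, and 3 and 1 of 5 in IGKV12. IGKV1 had 0 higher and 3 lower of 4, IGKV14 had 0 and 2 of 3, IGKV2 had 1 and 1 of 3, IGKV10 had 2 and 0 of 2, and IGKV9 and IGKV17 each had 1 and 0 of 2. IGKV15 had 1 higher of 1, and IGKV13, IGKV16 and IGKV19 had none called. Across the 8 libraries, which fall into 2 pools, the log2 share of IGKV5-48 was most like those of IGKV12-44 (Pearson r = 0.997), IGKV4-91 (0.956) and IGKV4-53 (0.954). IGKV5-43 was most like IGKV6-13 (0.953), IGKV17-127 (0.624) and IGKV3-5 (0.599), and IGKV5-39 was most like IGKV1-88 (0.533), IGKV14-126 (0.477) and IGKV6-15 (0.469). These are descriptions, and the libraries share pools.

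Averaged over the 8 libraries, joining to IGKJ5, the J gene furthest from the V genes, was more frequent in all 3 members than in the other kappa cells. IGKJ5 was in 37.2 ± 7.56% of IGKV5-39 cells, 53.2 ± 11.4% of IGKV5-43 cells and 33.9 ± 7.50% of IGKV5-48 cells, against 25.6, 25.4 and 25.6% of other kappa cells (mean ± SD over 8 libraries). It was higher in 7, 8 and 7 of the 8 libraries for the 3 genes. The mean difference was 13.6, 20.3 and 1.91 percentage points in KO and 9.69, 35.4 and 14.8 in WT, so that of IGKV5-48 lay mostly in WT. The exact sign-flip permutation test over libraries gave adjusted p values of 0.0293, 0.0180 and 0.0391. The call of IGKV5-39 was lost in 6 of the 8 fits that left out 1 library (all but KO replicate 3 and WT replicate 3), and that of IGKV5-48 in 7 (all but KO replicate 1), with adjusted p up to 0.0586 and 0.0781 (exact sign-flip permutation test). Over the 8 fits the differences ran from 10.54 to 13.4 and from 6.197 to 9.808 points. A fit without 1 library has fewer sign flips, so its smallest p is larger. IGKJ1, the J gene nearest to the V genes, was lower in IGKV5-43 (13.0 ± 8.93%, against 27.4%) and IGKV5-48 (11.7 ± 1.78%, against 27.5%), in 8 of 8 libraries for each (exact sign-flip permutation test, adjusted p = 0.0180 for each). In IGKV5-39, IGKJ1 was in 21.5 ± 8.44% of cells, against 27.3% of other kappa cells, and was not called (exact sign-flip permutation test, adjusted p = 0.122). IGKJ4 was higher in IGKV5-48 (25.4 ± 5.17%, against 14.6%, in 8 of 8 libraries; exact sign-flip permutation test, adjusted p = 0.0180). IGKJ2 was lower in IGKV5-39 (21.5 ± 6.82%, against 32.4%, in 7 of 8 libraries; exact sign-flip permutation test, adjusted p = 0.0293), and that call too was lost in 6 of the 8 fits that left out 1 library (all but KO replicates 1 and 3). Its difference ran from -12.5 to -9.095 points over these fits. By genotype, it was -3.93 points in KO and -17.9 in WT. That of IGKJ1 was -5.45 and -23.3 in IGKV5-43, and -15.0 and -16.6 in IGKV5-48. That of IGKJ4 in IGKV5-48 was 6.89 and 14.8.

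None of the 12 J shares was called between KO and WT by the exact permutation test, whose smallest p over 70 assignments is 0.0286. Of the 12, 3 had groups that did not overlap, whereas 37.5% of the 144 J shares of the 36 other IGKV genes with at least 26 cells in every library did not. IGKV5-43 with IGKJ1 was in 20.6, 20, 20.7 and 23.5% of cells of the KO libraries and 6.52, 4.55, 5 and 2.86% of those of the WT libraries. IGKV5-43 with IGKJ4 was in 6.35, 6.67, 6.90 and 9.80% in KO and 17.4, 22.7, 15.0 and 14.3% in WT. IGKV5-39 with IGKJ1 was in 17.6, 14.3, 12.5 and 17.1% in KO and 20.6, 27.8, 38.5 and 23.5% in WT. Each had p = 0.0286 and an adjusted p of 0.114 (exact permutation test). With each clone counted once KO minus WT was 11.1 percentage points for IGKV5-43 with IGKJ1, -3.94 for IGKV5-43 with IGKJ4 and -7.15 for IGKV5-39 with IGKJ1, and none was called. The largest WT clone held 19 of the 34 WT cells of IGKV5-43 with IGKJ4 and 11 of the 35 of IGKV5-39 with IGKJ1.

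**Figure D2:**
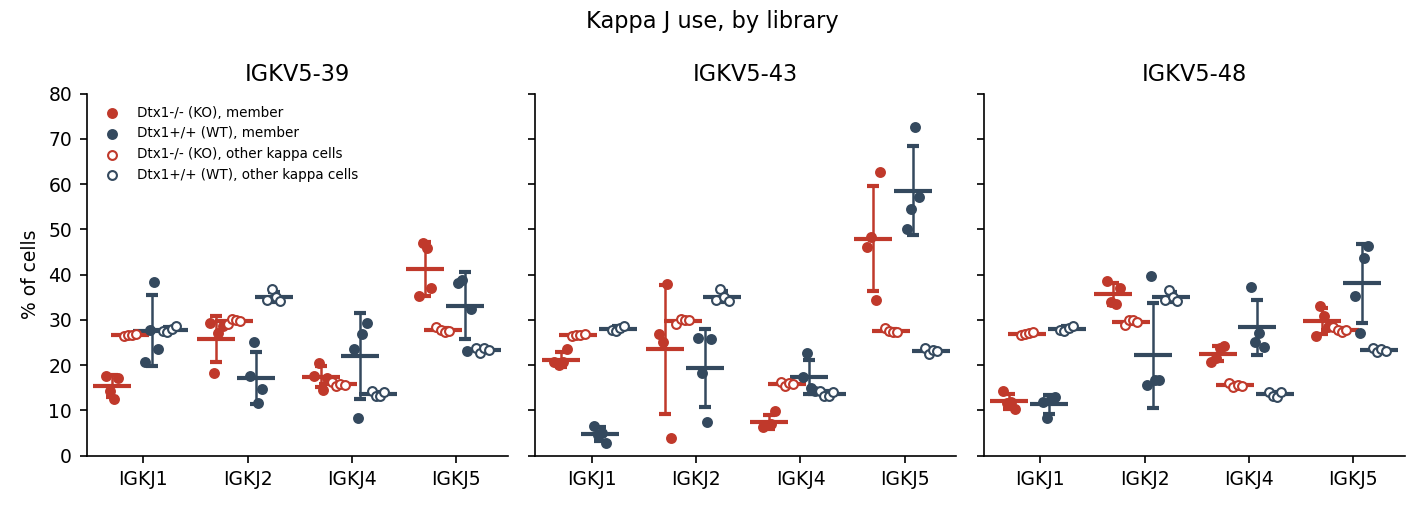
Share of cells with each kappa J gene, in percent, for the 3 members (filled points) and for all other kappa cells of the same libraries (open points), KO in red and WT in dark blue, with bars at the mean and whiskers at 1 SD of 4 libraries. IGKJ5 points of IGKV5-43 sit above the open points, from 34.5 to 62.7% in KO and 50 to 72.5% in WT, and IGKJ1 points of IGKV5-48 sit below them.

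The kappa CDR3 had 33 bases in 100% of IGKV5-39 cells, 91.6% of IGKV5-43 cells and 94.7% of IGKV5-48 cells. In IGKV5-39 that was higher than in the other kappa cells in 8 of 8 libraries (100%, against 91.9%; exact sign-flip permutation test, adjusted p = 0.0180), and likewise in IGKV5-48 (94.8%, against 91.9%; exact sign-flip permutation test, adjusted p = 0.0180). The heavy CDR3 paired with IGKV5-39 was longer, 45.8 ± 1.30 bases, against 43.3 in other kappa cells (8 of 8 libraries; exact sign-flip permutation test, adjusted p = 0.0180). That paired with IGKV5-48 was shorter, 42.2 ± 0.794 bases, against 43.3 (lower in 7 of 8 libraries; exact sign-flip permutation test, adjusted p = 0.0293). With each clone counted once the calls of IGKV5-48 for both lengths were lost (exact sign-flip permutation test, adjusted p = 0.128 for the kappa and 0.123 for the heavy CDR3). The heavy call was also lost in 6 of the 8 fits without 1 library (all but KO replicate 3 and WT replicate 3). The heavy difference ran from -1.326 to -0.9729 bases over the 8 fits. At the ninth codon of 33-base CDR3s, IGKV5-43 had leucine in 47.1% of cells in KO and 62.4% in WT, but in 52.2% of clones in KO and 56.0% in WT. IGKV5-48 had tyrosine in 31.9% of cells in KO and 18.8% in WT, and counted over clones the order turned, with 20% in KO (36 clones) and 28.9% in WT (28 clones). IGKV5-39 had tryptophan in 7.83% of cells in KO and 24.6% in WT, from 9 clones in each pool. These codon shares were not tested.

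The 3 genes drew on wide sets of heavy chains: 52 IGHV genes with IGKV5-39, 61 with IGKV5-43 and 64 with IGKV5-48, of 96 seen in kappa cells. The large IGHV1 family was less frequent with IGKV5-39 (55.6 ± 9.81%, against 66.0%), IGKV5-43 (57.1 ± 7.16%, against 66.0%) and IGKV5-48 (53.5 ± 5.71%, against 66.2%) than in other kappa cells. The exact sign-flip permutation test gave adjusted p values of 0.0493, 0.0180 and 0.0180. The mean difference was -2.37, -11.7 and -13.5 percentage points in KO and -18.4, -6.10 and -11.9 in WT, so that of IGKV5-39 lay mostly in WT. With each clone counted once the differences from other kappa cells were -11.9, -1.47 and -4.76 percentage points for the 3 genes, against -10.4, -8.90 and -12.7 with every cell counted, and all 3 calls were lost (exact sign-flip permutation test, adjusted p = 0.0703, 0.431 and 0.0617). The call of IGKV5-39 was also lost in 7 of the 8 fits without 1 library (all but KO replicate 3), with differences from -12.34 to -7.589 points over the 8 fits. Over both genotypes together the most common partner was IGHV8-8 with IGKV5-39 (27 KO and 32 WT cells), IGHV9-3 with IGKV5-43 (21 and 23) and IGHV1-55 with IGKV5-48 (77 and 16). Within a genotype IGHV9-3 led in neither, since IGHV5-16 was in 27 KO cells of IGKV5-43 and IGHV1-55 in 28 WT cells, and the leading partner of IGKV5-48 in WT was IGHV8-12 (40 cells).

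Several partner shares of the members stood apart between the KO and WT libraries, although no share passed the adjusted threshold. With IGKV5-48, IGHV1-55 was in 12.9, 17.4, 13.8 and 14.7% of KO cells and 7.84, 8.33, 6.25 and 9.26% of WT cells. IGHV8-12 was in 5, 4.13, 7.24 and 3.45% of IGKV5-48 cells in KO and 25.5, 18.8, 20.8 and 14.8% in WT. IGHV8-8 with IGKV5-48 averaged 7.54 ± 2.41% in KO and 2.52 ± 1.10% in WT, and IGHV1-76 with IGKV5-48 averaged 3.58 ± 0.792% in KO and 9.92 ± 1.18% in WT (SD, n = 4 libraries each). IGHV1-9 with IGKV5-48 averaged 8.10 ± 4.01% in KO and 10.8 ± 2.79% in WT (SD, n = 4 libraries each), and its groups overlapped. With IGKV5-43, IGHV5-16 was in 11.7 ± 1.73% of KO cells and 0.379 ± 0.758% of WT cells, and IGHV5-6 in 2.12 ± 1.54% of KO cells and 12.5 ± 4.14% of WT cells (SD, n = 4 libraries each). With IGKV5-39, IGHV1-53 was in 3.00 ± 0.877% of KO cells and 18.3 ± 5.86% of WT cells (SD, n = 4 libraries each). Those 7 shares, all but IGHV1-9, did not overlap between the genotypes, and each had p = 0.0286 and an adjusted p of 0.0612 over the 15 partner shares tested, so none of the 15 was called (exact permutation test). Of the 180 such shares of the same 36 other IGKV genes 51.7% did not overlap, so 7 of 15 is close to what these libraries give for other genes. The groups of the other 8 shares, IGHV1-9 included, overlapped. The partners were chosen by their cells in these same libraries, both genotypes together, so a partner common in only 1 genotype could enter through it. IGHV5-16 was in 27 KO cells and 1 WT cell of IGKV5-43, and IGHV5-6 in 5 and 24. IGHV1-53 was in 5 KO and 23 WT cells of IGKV5-39. For such partners the choice itself favours separate groups, so their separation is a description.

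**Figure D3:**
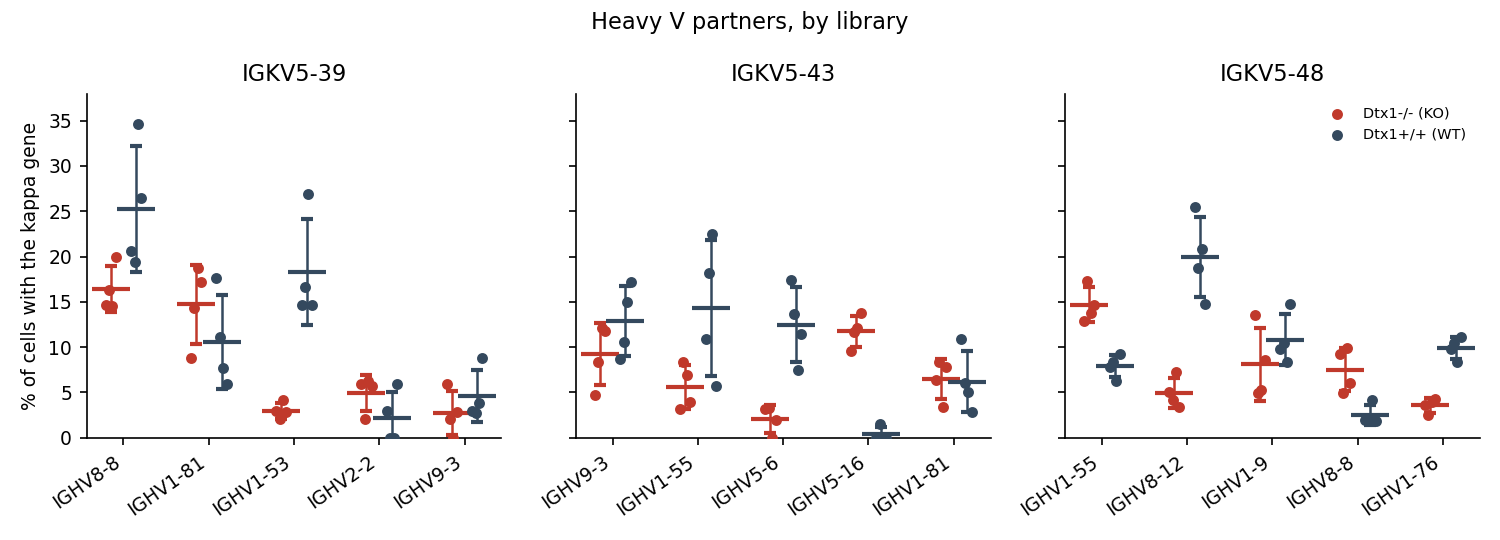
Share of the cells of each member, in percent, that use each of its 5 most common heavy V genes, 1 point per library with the mean and 1 SD of 4 libraries; KO is red and left of WT in dark blue. The KO and WT points separate for IGHV1-53 with IGKV5-39, IGHV5-6 and IGHV5-16 with IGKV5-43, and IGHV1-55, IGHV8-12, IGHV8-8 and IGHV1-76 with IGKV5-48.

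Few clones lay behind several of these partners. Of the 77 KO cells that paired IGHV1-55 with IGKV5-48, 51 belonged to 1 clone, and with each clone counted once KO minus WT was -1.60 percentage points and was not called. With all cells that have a heavy chain KO minus WT for IGHV8-8 with IGKV5-48 was -5.26 points, the reverse of the value above. That setting keeps the light contig with most UMIs, so it also takes in cells with several light chains. The WT clone of 90 such cells described above had IGHV8-8 with IGKV5-48, and its part in this value was not tested. Of the 40 WT cells that paired IGHV8-12 with IGKV5-48, 33 were 1 clone, of the 24 WT cells pairing IGHV5-6 with IGKV5-43, 19 were 1 clone, and of the 23 WT cells pairing IGHV1-53 with IGKV5-39, 19 were 1 clone. In the fit over all heavy and kappa pairs 73 passed the filter on low counts, of which 32.9% were called higher in KO and 76.7% in either direction. IGHV1-55 with IGKV5-48 was the 1 member pair among them and was higher in KO, with a log2 fold change of 2.01 (SE 0.346, edgeR adjusted p = 2.40e-08). It had 18, 21, 21 and 17 cells in the KO libraries and 4, 4, 3 and 5 in the WT libraries. The pair thus passed the filter, with its minimum count of 10, only through KO, which favours a call in that direction. Its unfiltered log2 fold change was also 2.01 (edgeR adjusted p = 5.57e-07). Without the filter 13 of 177 member pairs were called, 9 higher in KO and 4 lower, while of all 3687 pairs 5.29% were called higher in KO, 4.23% lower and 9.52% in either direction, so a call was no more common among member pairs. The member pair with the smallest p was IGHV2-9 with IGKV5-48, which was in 35 KO cells and 0 WT cells, 34 of them 1 clone.

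The letters of the heavy CDR3 of the largest clone of each gene and genotype are shown so that the largest clones can be recognised by their sequence.
IGKV5-39 in KO, IGHV8-8: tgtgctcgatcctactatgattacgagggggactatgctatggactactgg
IGKV5-39 in WT, IGHV1-53: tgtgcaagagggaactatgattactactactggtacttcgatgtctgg
IGKV5-43 in KO, IGHV5-16: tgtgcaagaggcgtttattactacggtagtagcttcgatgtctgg
IGKV5-43 in WT, IGHV5-6: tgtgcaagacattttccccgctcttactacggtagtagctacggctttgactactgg
IGKV5-48 in KO, IGHV1-55: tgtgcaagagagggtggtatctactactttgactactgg
IGKV5-48 in WT, IGHV8-12: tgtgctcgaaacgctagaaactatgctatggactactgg
The IGKV5-43 clone in KO holds 13 of the 27 KO cells that pair IGHV5-16 with that gene, and the IGKV5-39 clone in KO holds 8 of the 27 that pair IGHV8-8 with it. The IGKV5-48 clone in KO had 51 cells (10, 12, 13 and 16 in the 4 libraries), and that in WT had 33 cells (11, 8, 8 and 6). The IGKV5-43 clones had 13 cells in KO (3, 5, 5 and 0) and 19 in WT (5, 9, 2 and 3), and the IGKV5-39 clones had 8 cells in KO (1, 2, 2 and 3) and 19 in WT (4, 3, 7 and 5). The next largest were IGHV2-9 with IGKV5-48 in KO (34 cells), IGHV1-76 with IGKV5-48 in WT (14), IGHV2-9-1 with IGKV5-43 in KO (10), IGHV9-3 with IGKV5-43 in WT (9), IGHV1-80 with IGKV5-39 in KO (6) and IGHV8-8 with IGKV5-39 in WT (11). All 12 clones were IgM in every cell. No mutation was seen in either chain in 10 of the 12, and in 96.1% of the cells of the KO IGHV1-55 clone and 84.8% of those of the WT IGHV8-12 clone.

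In the whole KO and WT pools, IGKV5-48 made 199 clones from 529 KO cells and 104 clones from 201 WT cells. IGKV5-43 made 129 clones from 232 KO cells and 97 from 187 WT cells, and IGKV5-39 made 101 from 166 KO cells and 69 from 130 WT cells. Clones that reached 5 cells took in 52.9% of IGKV5-48 cells in KO and 41.8% in WT, 26.7% and 32.1% of IGKV5-43 cells, and 11.4% and 38.5% of IGKV5-39 cells. At an equal number of cells per library, the expected number of IGKV5-48 clones was 33.6 ± 1.30 in KO and 33.6 ± 3.70 in WT among 48 cells. For IGKV5-43 it was 29.6 ± 2.24 in KO and 28.7 ± 1.81 in WT among 35 cells, and for IGKV5-39 it was 23.6 ± 1.16 in KO and 19.4 ± 3.65 in WT among 26 cells (SD, n = 4 libraries each). The largest clone of a library took 6.20 ± 1.85% of IGKV5-39 cells in KO and 15.4 ± 8.09% in WT, 10.0 ± 2.78% of IGKV5-48 cells in KO and 14.5 ± 2.42% in WT, and 6.90 ± 1.88% of IGKV5-43 cells in KO and 9.52 ± 3.66% in WT (SD, n = 4 libraries each). None of these 6 values was called (exact permutation test, smallest adjusted p = 0.171).

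The member cells were mostly IgM: 159 of 166 KO and 123 of 130 WT cells with IGKV5-39, 221 of 232 and 168 of 187 with IGKV5-43, and 492 of 529 and 184 of 201 with IGKV5-48. Switched cells averaged 3.03 ± 2.55% of IGKV5-39 cells in KO and 4.56 ± 3.67% in WT, 4.37 ± 2.22% of IGKV5-43 cells in KO and 9.93 ± 6.25% in WT, and 6.60 ± 2.64% of IGKV5-48 cells in KO and 7.57 ± 5.03% in WT (SD, n = 4 libraries each). None of these differences was called (exact permutation test, adjusted p = 0.643, 0.286 and 0.771). Against other kappa cells, IGKV5-39 cells were switched less often (3.79 ± 3.04%, against 7.21%, lower in 7 of 8 libraries; exact sign-flip permutation test, adjusted p = 0.0391), a call lost in 6 of the 8 fits without 1 library (all but KO replicate 3 and WT replicate 1). The difference ran from -4.119 to -2.819 percentage points over the 8 fits. IGHG1 was the most frequent switched gene, with 4 KO and 3 WT cells in IGKV5-39, 8 and 6 in IGKV5-43, and 27 and 6 in IGKV5-48. IGHG2B was in 0 KO and 2 WT, 1 and 6, and 7 and 3 cells of the 3 genes, and IGHG3 in 1 and 1, 0 and 4, and 1 and 5. IGHG2C was in 1 KO cell of IGKV5-43 and 1 WT cell of IGKV5-48, and IGHA in 1 WT cell of IGKV5-43. Of the switched IGKV5-43 cells, 10 in KO and 17 in WT, IGHG1 made up 100, 66.7, 75 and 100% in the KO libraries and 25, 50, 33.3 and 50% in the WT libraries. In the kappa cells outside the 3 genes IGHG1 made up 78.7 ± 0.888% of switched cells in KO and 45.4 ± 2.15% in WT (SD, n = 4 libraries each). The IGKV5-43 values did not overlap (exact permutation test, p = 0.0286, adjusted p = 0.143), and each value rests on few cells.

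The V segments of IGKV5-43 and IGKV5-48 cells were less mutated in KO than in WT, in the kappa chain and in the heavy chain paired with it. The kappa V of IGKV5-43 had 0.106 ± 0.0587 mutated bases per 100 in KO and 0.275 ± 0.0440 in WT, and its heavy V had 0.224 ± 0.0628 in KO and 0.485 ± 0.0529 in WT (SD, n = 4 libraries each). The kappa V of IGKV5-48 had 0.0903, 0.0538, 0.0832 and 0.0826 in KO and 0.1503, 0.192, 0.136 and 0.149 in WT, and its heavy V averaged 0.145 ± 0.0325 in KO and 0.346 ± 0.0986 in WT. Cells with no kappa V mutation were 87.5 ± 4.79% of IGKV5-43 cells in KO and 66.6 ± 5.11% in WT, and 87.9 ± 1.98% of IGKV5-48 cells in KO and 75.5 ± 4.51% in WT (SD, n = 4 libraries each). In these 6 of 9 comparisons the groups did not overlap, as in 58.3% of the 108 mutation values of the same 36 other IGKV genes, and each had p = 0.0286, the smallest the test allows, and an adjusted p of 0.0429 (exact permutation test over the 9 mutation values). All 6 calls ended when framework 1 was left out (exact permutation test, adjusted p from 0.0514 to 0.0643) and in 7 of the 8 fits without 1 library (up to 0.0857). The adjusted p of 0.0429 needs 6 of the 9 values at the smallest p, so the calls end together once fewer reach it. KO minus WT kept its sign for all 6 in these fits. Without WT replicate 3 the kappa call of IGKV5-43 ended (exact permutation test, adjusted p = 0.0735), the others held, and the kappa value of IGKV5-39 was called. IGKV5-39 had a kappa V mutation of 0.0583 ± 0.0303 in KO and 0.142 ± 0.0636 in WT (SD, n = 4 libraries each) and was not called (exact permutation test, adjusted p = 0.0735).

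The same direction held in the other kappa cells of the libraries. Their kappa V had 0.110 ± 0.00237 mutated bases per 100 in KO and 0.214 ± 0.0109 in WT, as seen beside IGKV5-48 (SD, n = 4 libraries each). The KO minus WT difference of a member did not differ in a called way from that of other kappa cells in any of 9 comparisons (exact permutation test, smallest p = 0.0571, smallest adjusted p = 0.514). IGKV5-48 cells were less mutated than other kappa cells in both chains and in 8 of 8 libraries, at 0.117 per 100 kappa bases, against 0.162, and 0.246 per 100 heavy bases, against 0.334 (exact sign-flip permutation test, adjusted p = 0.0180 for each). IGKV5-39 cells were also less mutated in 8 of 8 libraries, at 0.0999 per 100 kappa bases, against 0.162, and 0.205 per 100 heavy bases, against 0.334 (exact sign-flip permutation test, adjusted p = 0.0180 for each). IGKV5-43 cells were at 0.190 and 0.355, against 0.161 and 0.333, and were not called (exact sign-flip permutation test, adjusted p = 0.313 and 0.375). With each clone counted once the kappa difference of IGKV5-48 from other kappa cells was -0.0613 per 100 bases, against -0.0450 with every cell counted, but was no longer called (exact sign-flip permutation test, adjusted p = 0.0617).

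**Figure D4:**
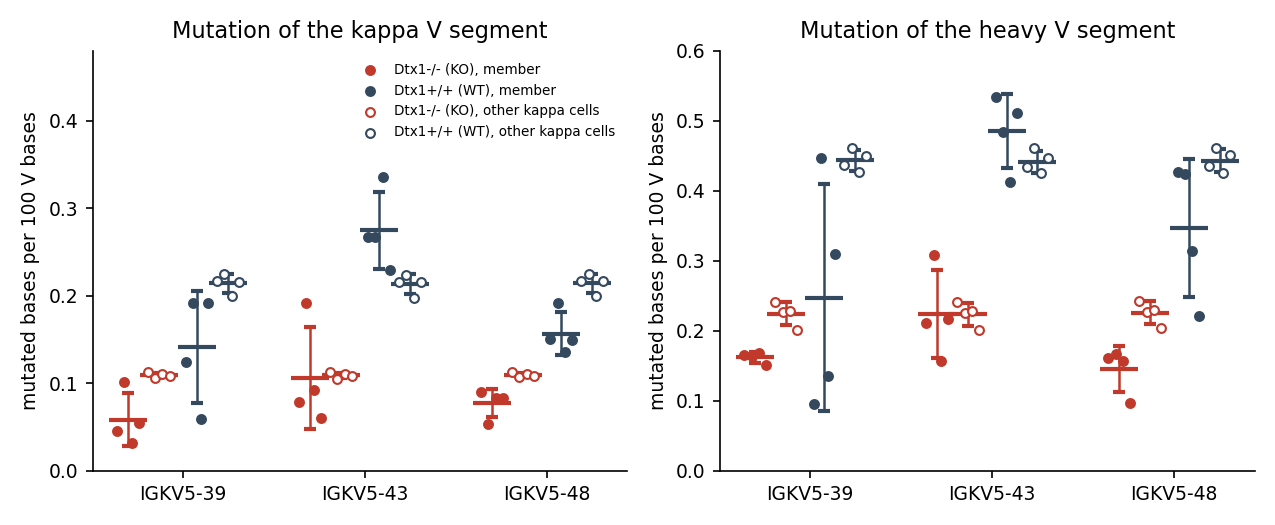
Mutated bases per 100 bases of the kappa V segment and of the heavy V segment in cells with each member (filled points) and in all other kappa cells (open points), KO in red and WT in dark blue, with bars at the mean and whiskers at 1 SD of 4 libraries. The KO points of IGKV5-43 and IGKV5-48 lie below their WT points in both panels, and the open points of KO lie below those of WT.

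Mutations fell more densely on the CDRs than on the frameworks. Counting each pool clone once at each position, CDR1 and CDR2 were hit 1.96 times as often per position as the frameworks in IGKV5-39, 2.38 times in IGKV5-43 and 1.51 times in IGKV5-48. These ratios are descriptions with no test. Of the clones, 14.9% in KO and 23.2% in WT carried a mutation in IGKV5-39, 19.4% and 44.3% in IGKV5-43, and 23.1% and 36.5% in IGKV5-48. In IGKV5-43 the leading position was 89, in CDR1, mutated in 10 clones (4 in KO and 6 in WT). It lies in the motif G, then C or T, then A or T, known as a target of the mutating enzyme AID, and G89A, a serine-to-asparagine replacement, was the most frequent change there, in 6 clones. Next came position 90, in 6 clones, with C90G in 3, and position 253 in framework 3, in 6 clones. In IGKV5-48 position 247 in framework 3 was mutated in 10 clones (5 in KO and 5 in WT), and 8 of these carried A247G, an isoleucine-to-valine replacement. Position 221 was mutated in 9 clones, with G221A in 6, and position 99 in 7 clones, with the silent change A99T in 6. In IGKV5-39 position 253 was mutated in 5 clones, all with G253A, a valine-to-methionine replacement, and positions 83, 89 and 165 in 3 clones each. Positions count from 1 at the first base of framework 1.

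**Figure D5:**
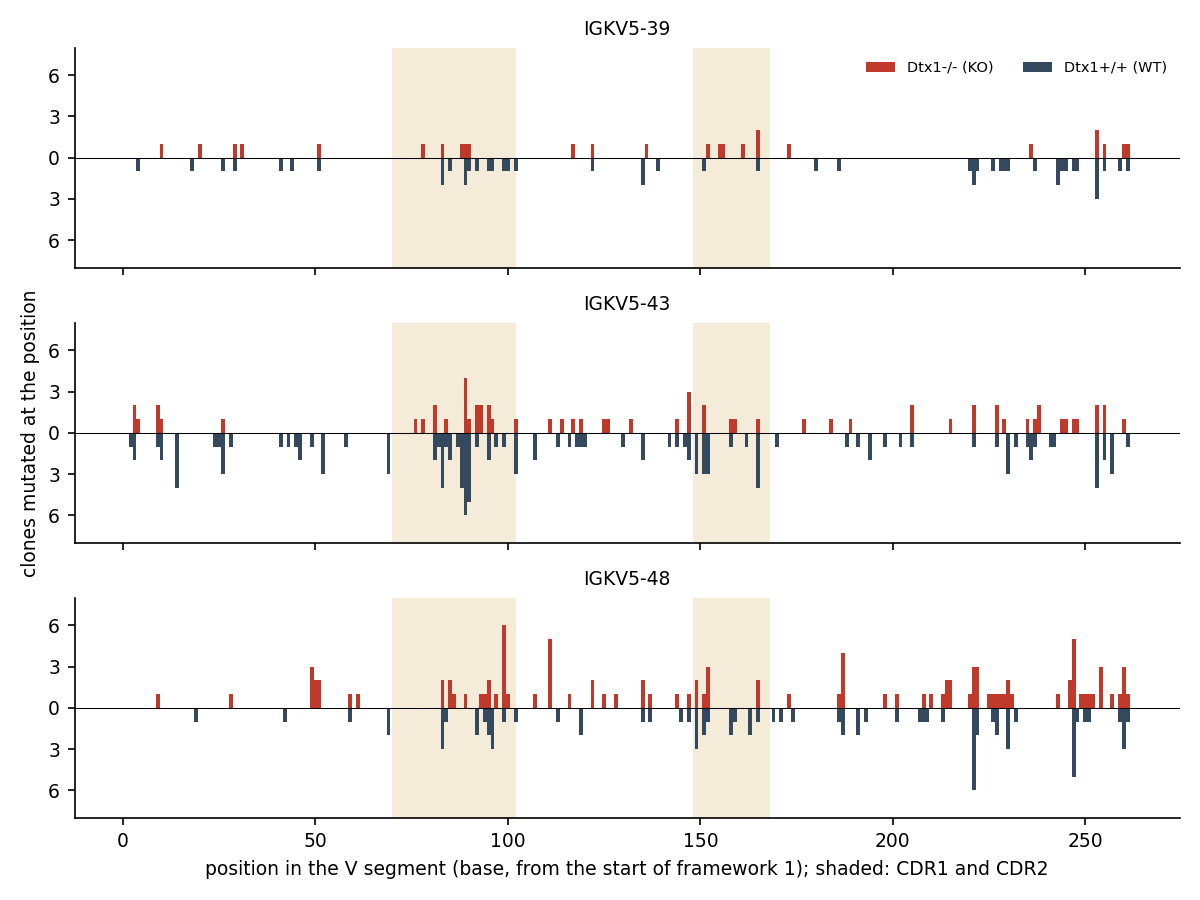
Number of pool clones with a mutation at each base of the V segment, KO upward in red and WT downward in dark blue, with CDR1 and CDR2 shaded. The tallest bars, 6 clones each, are at 99 of IGKV5-48 in KO, and at 89 of IGKV5-43 and 221 of IGKV5-48 in WT, and position 247 of IGKV5-48 has 5 in KO and 5 in WT.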

How the data were processed

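The 8 deposited tables list assembled receptor contigs, with whole-number counts of reads and UMIs per contig and no normalization, per the file headers. The authors used Cell Ranger, in a version not given in the sources used here, and R 4.3.1, with mm10, per the submitters' processing notes. All 104649 contigs were marked as cells, high confidence, full length and productive. The members and lists were chosen with earlier results of these data known.

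Cells with exactly 1 heavy and 1 light contig were kept, which leaves out barcodes with several heavy chains; no doublet caller was run. A clone had the same V and J genes in both chains and heavy CDR3s of one length, joined at an identity of at least 0.85. A germline was the most common framework 1 to 3 sequence over at least 20 clones (79 IGKV and 82 IGHV genes). Cells per gene or pair were tested with edgeR 4.0.16 in R 4.3.3 (quasi-likelihood, filterByExpr, library size the kappa or paired cells), with DESeq2 1.42.0 as an alternative. Shares and means were tested with exact two-sided permutation tests over 70 assignments of libraries, or 256 sign flips for a member against other kappa cells (smallest p 0.00781). Benjamini-Hochberg adjustment ran within each kind of value, and called means adjusted p under 0.05. Named genes were the 3 members, the 5 most common heavy partners and called pairs of each, all J and constant genes, the 3 most common CDR3s, the 2 largest clones of each gene and pool, the 3 positions mutated in most clones, the neighbours, the kappa families and the 3 genes of most similar use (log2 share with 0.5 cells added). IGHV2-9 and the pairs called without the filter were named after their values were seen. The tests were run on simulated data. For the edgeR tests the simulated counts were drawn for each library on its own, without shared clones. They therefore cannot show how these tests behave on libraries that share a pool. Alternatives were other scaling, filters, UMI minimums, clone definitions, germlines and leaving out each library. The 36 other IGKV genes whose shares give the background for groups that do not overlap had at least 26 cells in every library, as many as the smallest member, a limit set after the data were seen.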

Additional observations from a re-analysis of the deposited data

Results flagged for a closer look

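Of 110 groups of 4 library values, 8 held a library whose gap to the nearest other value passed Dixon's criterion, and chance alone gives about 1 in 20 groups. IGKV5-39 cells of WT replicate 1 had a mean heavy CDR3 of 43.94 bases, against 47.0 to 47.47 in the other WT libraries. IGHV1-53 was in 26.92% of the IGKV5-39 cells of WT replicate 3, against 14.71 to 16.67%. IGHV2-2 was in 2.041% of the IGKV5-39 cells of KO replicate 2, against 5.714 to 6.25%. IGKJ4 was in 9.804% of the IGKV5-43 cells of KO replicate 4, against 6.349 to 6.897%, and IGHV5-16 was in 1.515% of those of WT replicate 2, 1 of 66 cells, against 0 in the others. IGKJ2 was in 39.58% of the IGKV5-48 cells of WT replicate 2, against 15.69 to 16.67%. The heavy V mutation of IGKV5-48 cells in KO replicate 4 was 0.09676 per 100 bases, against 0.157 to 0.1667, and IGHV8-8 was in 4.167% of the IGKV5-48 cells of WT replicate 3, against 1.852 to 2.083%.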

How the results depend on the processing

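Of 99 single results, 27 were called and 11 of these kept their call and direction under every alternative run for them, IGKV5-48 use among them. Its log2 fold change was called under all, from 1.061 to 1.183 without 1 library, 0.8957 with DESeq2 and 0.882 with TMM. The alternatives were not the same for every result. Values against other kappa cells were rerun only with each clone counted once and without 1 library, not with framework 1 left out. The pair IGHV1-55 with IGKV5-48, with 51 of its 77 KO cells in 1 clone, had no value with each clone counted once. The libraries share only a replicate number: the correlations of same-numbered libraries ran from -0.211 to 0.0436, and no KO library was most like its own number. With the replicate block, IGKV5-48 use was 1.122, IGKV5-39 use 0.07469, IGKV5-43 use 0.04918, and 31 IGKV genes were called higher and 17 lower, with no call of a member changed.

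IGKV genes called higher in KO were 18 with DESeq2 and 20 with each clone counted once, against 32, and those called lower were 11 with each clone counted once, against 18. With TMM, 23 were higher and 23 lower. Pairs called higher and lower were 195 and 156 without the filter, and 3 and 13 with each clone counted once, against 24 and 32. IGKV5-39 use was -0.1601 with TMM, -0.1519 with DESeq2 and -0.009099 to 0.1678 without 1 library. IGKV5-43 use was -0.2021 with TMM, -0.1948 with DESeq2, -0.1232 with each clone counted once and -0.06813 to 0.2538 without 1 library.

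With framework 1 left out, 0 of 9 mutation values were called, and without 1 library 0 to 6. KO minus WT with framework 1 left out was -0.1431 for the kappa V and -0.3088 for the heavy V of IGKV5-43, and -0.1058 and -0.2427 for IGKV5-48. Without 1 library the kappa V values ran from -0.1975 to -0.1487 for IGKV5-43, -0.08613 to -0.06751 for IGKV5-48 and -0.1107 to -0.06648 for IGKV5-39, and the heavy V values from -0.29 to -0.2394 for IGKV5-43 and -0.243 to -0.1746 for IGKV5-48.

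In 57 alternative values of 24 results the sign turned, and none was called in either setting. With each clone counted once these were IGKJ4 (4.6) and IGKJ5 (-0.5335) in IGKV5-39, IGKJ4 (2.259), IGHV1-55 (-1.602), IGHV1-9 (1.39), switched share (0.33) and heavy CDR3 length (0.1157) in IGKV5-48. Against other kappa cells it was the heavy V mutation of IGKV5-43 (-0.01944), and for its KO minus WT difference against theirs 0.01013. With all cells that have a heavy chain, IGKV5-48 turned in switched share (0.3689), 33-base CDR3 share (11.12), heavy CDR3 length (0.8304) and IGHV8-8 (-5.264), and IGKV5-43 in IGHV1-81 (-0.125), also with at least 5 UMIs (-0.2477). The rarefied clones of IGKV5-48 were -0.6329 at a clone identity of 0.95, -1.273 with identical heavy CDR3s and -0.7891 to 1.878 without 1 library. Without 1 library the other ranges across 0 were -0.7355 to 10.6 (IGKJ2, IGKV5-43), -0.3985 to 1.176 (IGKJ1, IGKV5-48), -2.26 to 1.367 (switched, IGKV5-48) and -0.8166 to 1.854 (IGHV1-81, IGKV5-43). Against other kappa cells they were -1.551 to 0.7521 (switched, IGKV5-43), -0.3729 to 1.154 (33-base CDR3, IGKV5-43) and -1.012 to 0.442 (switched, IGKV5-48). For the difference of differences they were -1.944 to 1.091 and -1.183 to 2.231 (switched, IGKV5-39 and IGKV5-48), -0.0009535 to 0.03781 (kappa V, IGKV5-39) and -0.02793 to 0.04579 (heavy V, IGKV5-48). The cause of these changes was not tested, and the number of member cells, 26 to 152 per gene and library, limits them.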

Other observations

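A second WT receptor group with 2 light chains used IGKV5-48. It held 18 IgM cells (0 in the KO libraries and 5, 3, 4 and 6 in the WT libraries) with IGHV1-64, IGKV5-48 joined to IGKJ5, and IGKV2-109. The heavy CDR3 was identical in 8 of the 18 cells and the IGKV5-48 CDR3 in 11, and the IGKV5-48 V segment was unmutated in 8. Its most common heavy CDR3 was seen in 0 paired cells with IGKV5-48 alone and in 0 with IGKV2-109 alone.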
